A study of Mus musculus with 20 samples.

Results

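Krt6a, Krt6b, Krt16, Krt17 and Krt75 are keratins named for wounded and stressed epidermis and for the companion layer of the hair follicle. They were taken by gene symbol and make up 5 of the 31055 genes counted and 5 of the 53 keratin symbols among them. All 5 were found in both count matrices. The cells came from the back skin epidermis of mice whose follicles were in anagen, when hair grows. The mutant samples (16 by the labels) carried Nfatc1-CreER;R26R;mTmG;Fgf5-/- and received tamoxifen for 3 days starting on postnatal day 23 or 24. The control samples (4 by the labels) carried Nfatc1-CreER;R26R;mTmG and received tamoxifen for 3 days starting on postnatal day 21 or 22. Both groups thus carried the tamoxifen-inducible Cre named for Nfatc1 and the reporter alleles. Fgf5, the signal known for ending anagen, is labelled as lost on both alleles in the mutant. The labels give no age beyond those days, and the later start cannot be told apart from the genotype.

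Keratins form the intermediate filaments of epithelial cells, always as pairs of a type I and a type II chain. Krt16 and Krt17 are type I chains, and Krt6a, Krt6b and Krt75 are type II chains. In resting mouse skin Krt6a, Krt16, Krt17 and Krt75 are known from the follicle, above all from its companion layer and outer root sheath. In interfollicular epidermis Krt6a, Krt6b, Krt16 and Krt17 are known to be switched on after wounding, irritation or barrier loss.

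The genes lie in the 2 keratin clusters of the mouse genome, all on the minus strand (build GRCm38, GENCODE vM21 annotation). Krt16 lies at chr11:100246091-100248902 and Krt17 at chr11:100256217-100261029. Krt75 lies at chr15:101563345-101573904, Krt6b at chr15:101676023-101680287 and Krt6a at chr15:101689910-101694307. The last 60 coding bases of each member, stop codon included, are shown because the reads counted here come from the 3′ end of the transcript, where near copies have to be told apart. They come from the GENCODE transcripts. Capitals mark bases without an identical partner when the whole coding sequences are aligned, Krt6a with Krt6b, Krt16 with Krt17, and Krt75 with Krt6a.
Krt6a: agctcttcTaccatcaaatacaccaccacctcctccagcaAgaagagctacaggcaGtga
Krt6b: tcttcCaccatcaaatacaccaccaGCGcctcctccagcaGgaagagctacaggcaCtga
Krt75: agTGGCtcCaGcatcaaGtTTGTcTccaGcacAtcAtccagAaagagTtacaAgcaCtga
Krt16: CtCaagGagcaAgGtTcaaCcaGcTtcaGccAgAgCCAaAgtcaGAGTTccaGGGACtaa
Krt17: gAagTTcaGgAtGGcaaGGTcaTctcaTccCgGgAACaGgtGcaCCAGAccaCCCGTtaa
The coding sequences of Krt6a and Krt6b were 97.6% identical and those of Krt16 and Krt17 71.1%. Over the last 500 transcript bases, Krt6a and Krt6b were 68.9% identical, with a longest shared run of 22 bases, and no stretch of 50 bases was shared between them. Of the 451 stretches of 50 bases in the last 500 bases of Krt16, 70 also occur in Gm11597, an unprocessed pseudogene that is not among the counted genes. In Krt17, 43 such stretches also occur in Krt14, a basal keratin, and 6 in Krt16. How the counting treated reads from those stretches is not stated, so Krt16 and Krt17 counts are uncertain to that extent.

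Each group is 1 pooled count matrix, and no cell is tied to a sample. There are therefore no replicates and no tests, and intervals are exact 95% intervals that cover counting error only. The mutant matrix kept 10795 cells (median 5953 UMIs, where a UMI marks 1 captured RNA molecule) and the control matrix 12887 cells (median 5464 UMIs). The median share of mitochondrial UMIs was 4.93% in mutant and 3.23% in control cells, and 35 kept barcodes occur in both libraries. Cells were clustered without the 5 members, and clusters were named only from marker genes, while keratinocyte clusters 1, 11 and 27 met no name. Of the keratinocyte clusters, 7 classes held 200 or more cells in each library and were compared. Another 4 held 100 to 199 cells in 1 library and are given as smaller classes, a limit added after the values were seen. Hair cortex and cuticle-like cluster 25 (70 mutant, 118 control cells) and cluster 27 (85 mutant, 97 control cells) enter only the sums over all keratinocytes. Levels are UMIs of the gene per 1000000 UMIs of the class (CPM). A ratio is called large at 2-fold or more, with the nearer end of its interval beyond 1.5-fold and 100 CPM or more in the higher library.

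Of the 5 keratins, Krt16 had most of the large ratios, and its levels were highest in the interfollicular epidermis and the upper follicle of the mutant library. In suprabasal-like cells, a smaller class of 432 mutant and 184 control cells, Krt16 stood at 6376 CPM in the mutant library (95% interval 6293 to 6459) and 600.4 CPM in the control library (562 to 641), a log2 ratio of 3.41 (3.31 to 3.51). In interfollicular basal-like cells, 1440 mutant and 1119 control, it stood at 2609.9 CPM in the mutant and 331 CPM in the control library, a log2 ratio of 2.98 (2.93 to 3.03). In upper follicle-like cells it stood at 1796 CPM in the mutant and 251 CPM in the control library, a log2 ratio of 2.84 (2.71 to 2.97). These were the 3 highest Krt16 levels in the mutant library. In the control library the next 3 classes after suprabasal-like cells did not differ beyond their counting intervals, at 341 CPM in outer root sheath-like cluster 7, 339 CPM in cluster 1 and 331 CPM in basal-like cells.

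The other follicle classes had lower Krt16 levels in the mutant library. The medulla-like class, the core of the hair shaft, had 235 CPM in the mutant and 19.3 CPM in the control library, where only 25 UMIs were counted. It passed the rule, but Krt16 was found in 1.99% of thinned control cells, beside 2.08% of control T or NK cells, so the log2 ratio of 3.61 has no reliable size. Both classes named for the hair matrix, whose dividing cells build the shaft, passed the rule. The name of cluster 10 is the weaker one. Its marker score was 1.65 for hair matrix and 1.17 for interfollicular basal cells, and no hair matrix marker was among its leading genes. Cluster 10 had 147 CPM in mutant and 38.0 CPM in control cells (log2 ratio 1.96), and cluster 8 had 175 CPM in mutant and 65.5 CPM in control cells (1.42). The cluster 10 call was lost under 4 other settings, among them a stricter cell filter, where the log2 ratio was 1.37. In outer root sheath-like cluster 7, which is led by Pthlh and Sox9, Krt16 was short of the rule. It stood there at 500.5 CPM in mutant and 341 CPM in control cells (0.55), and in cluster 1 at 449 and 339 CPM (0.41) in the same order. Inner root sheath-like cells had 311 CPM in the mutant and 158 CPM in the control library (0.98), just below the 2-fold limit. It was called higher under 10 of 16 other settings, which ran between 0.53 and 1.74. Outer root sheath-like cluster 0 had 146 CPM in the mutant and 83.7 CPM in the control library (0.80). Cluster 11 was the one class of the 11 with a ratio under 0, at 90.7 CPM in mutant and 102 CPM in control cells (-0.17, interval -0.52 to 0.17).

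**Figure D1:**
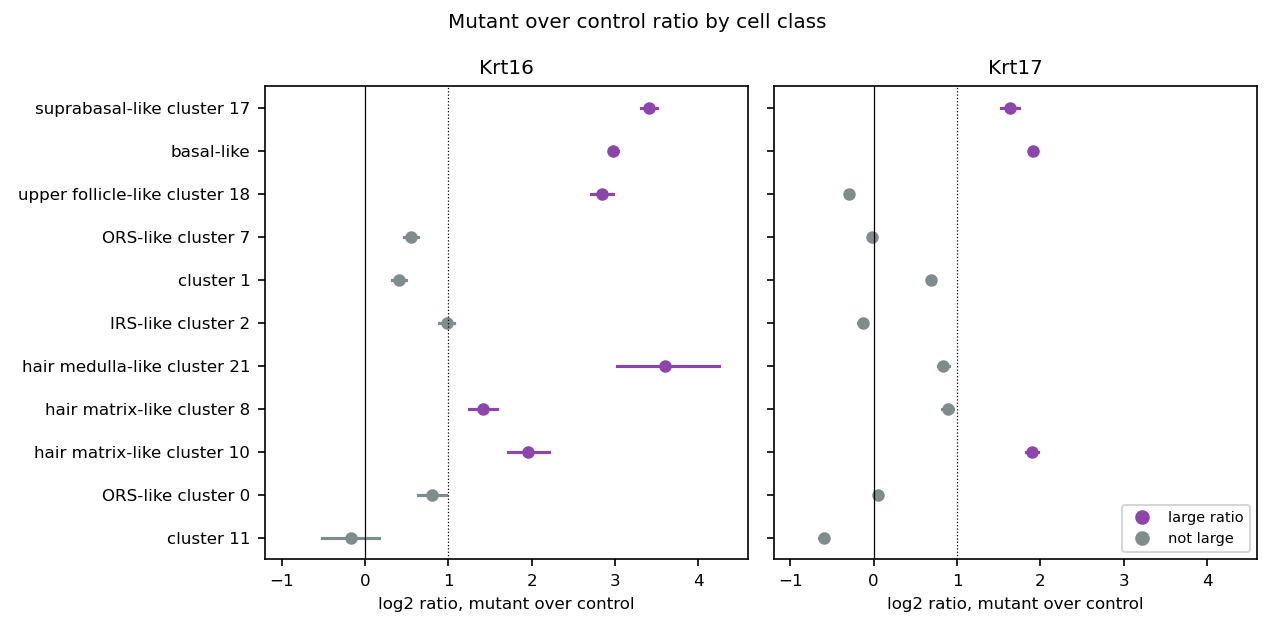
Log2 ratio of Krt16 and Krt17, mutant over control, in 11 keratinocyte classes, with exact 95% counting intervals as lines; the solid line marks no difference, the dotted line 2-fold, ORS is outer root sheath and IRS inner root sheath. Krt16 passed the rule for a large ratio in 6 classes and Krt17 in 3.

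Over the 7 compared classes, 5 of 35 member ratios were large and higher in the mutant library, 3 of Krt16 and 2 of Krt17, and none was lower. Over all genes tested in those classes 2.78% of ratios were large and higher and 2.53% large and lower. With the 4 smaller classes the count was 9 of 55 higher and 0 lower, against a background of 4.6% higher and 3.88% lower. The 35 and the 55 include ratios under the 100 CPM limit, which could not be called either way. Among them are all those of Krt6b and most of those of Krt6a and Krt75, while all Krt16 and Krt17 ratios reached the limit. The background leaves out genes under the limit, so the counts and the background do not share a base. The background was uneven. In basal-like cells 8.76% of tested genes were large and higher and 10.3% large and lower, in suprabasal-like cells 11.7% and 10.2%, and in medulla-like cells 10.1% and 7.74%. In upper follicle-like cells they were 6.68% higher and 4.71% lower. In the other classes few genes were called. The shares, higher before lower, were 1.44% and 0.962% in outer root sheath-like cluster 0, 2.16% and 1.76% in cluster 7, 1.15% and 1.08% in cluster 1, and 1.67% and 1.02% in inner root sheath-like cells. They were 1.33% and 1.11% in hair matrix-like cluster 8, 2.28% and 0.759% in cluster 10, and 1.79% and 1.6% in cluster 11. Over all keratinocyte clusters summed, Krt16 stood at 1148 CPM in the mutant and 191 CPM in the control library (log2 ratio 2.59, interval 2.56 to 2.61), where 4.31% of genes were large and higher and 3% lower. Classes had unequal sizes in the libraries, and the mean of the 7 class ratios with equal weights was 1.30.

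The basal-like class was made of different clusters in the 2 libraries. Cluster 4, led by Tslp, Epgn and Ccl20, held 1303 of the mutant cells and 21 of the control cells. Cluster 6, led by Ndufa4l2 and Clca3a2, held 137 mutant and 1098 control cells. Within cluster 6 Krt16 was at 567 CPM in mutant and 329 CPM in control cells, a log2 ratio of 0.79 (0.62 to 0.95). Within cluster 4 it was at 2761 CPM in mutant cells and 564 CPM in the 21 control cells, where 52 UMIs were counted (2.29, interval 1.90 to 2.71). With both clusters weighted equally the log2 ratio of the class was 1.90. When genes of large ratio were left out of the clustering, it was 2.81. Dividing cells of the class, with 2 or more UMIs of division markers, had 2126 CPM in the mutant and 367 CPM in the control library (2.53), and the other cells had 2794 CPM in the mutant and 233 CPM in the control library (3.58). Dividing cells made up 222 of the mutant cells and 525 of the control cells.

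Marker transcripts of other cell types differed between the libraries in the classes of high Krt16 and in other classes too. T or NK cell markers were lower in the mutant library in every class. Melanocyte markers were higher in the mutant library except in suprabasal-like and upper follicle-like cells. In outer root sheath-like cluster 0, melanocyte markers summed to 439 CPM in mutant and 193 CPM in control cells. Summed over 8 sebaceous gland markers, of which 1 was at 0 in the mutant and 0 were at 0 in the control library, mutant basal-like cells had 199.5 CPM and control basal-like cells 1026 CPM, and Krt16 kept a log2 ratio of 2.95 without the cells that held 3 or more UMIs of 6 of these markers. The summed level of 8 T or NK cell markers was 31.3 CPM in mutant and 104.5 CPM in control basal-like cells, with none of the markers at 0 in either library. The summed level of 7 melanocyte markers was 377 CPM in mutant and 143 CPM in control basal-like cells, again with no marker at 0. In suprabasal-like cells the summed level of 6 upper follicle markers was 4616 CPM in the mutant and 1165 CPM in the control library. T or NK cell markers summed to 57.6 CPM in mutant and 234 CPM in control suprabasal-like cells, and melanocyte markers to 284 CPM in mutant and 588 CPM in control cells. In upper follicle-like cells 8 suprabasal markers summed to 12710 CPM in the mutant and 8551 CPM in the control library, T or NK cell markers to 78.5 CPM and 179 CPM, and melanocyte markers to 349.9 CPM and 577 CPM, mutant first. The 6 upper follicle markers of that class summed to 20925 CPM in mutant and 29181 CPM in control cells, so its make-up differed between the libraries. Without the basal-like cells that held 3 or more sebaceous marker UMIs, the log2 ratio there was 2.08 for Krt17, 1.67 for Krt6a and -1.13 for Krt75. The part of the other marker RNAs in the keratin results was not tested.

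The difference in Krt16 was spread over most interfollicular cells. With each cell thinned to 1500 UMIs, 74.1% of mutant basal-like cells (71.8% to 76.4%) and 18.9% of control basal-like cells (16.6% to 21.4%) held a Krt16 UMI. Unthinned, 84.8% of mutant and 36.8% of control cells did. A cell with 10 or more thinned UMIs was found among 11.03% of mutant basal-like cells and among 0% of the 1062 control cells. In suprabasal-like cells 82.4% of mutant and 26.8% of control cells held Krt16 after thinning, and 41.0% of mutant and 1.68% of control cells held 10 or more UMIs. In upper follicle-like cells the shares were 45.4% in the mutant and 19.5% in the control library, and 10.3% of mutant cells and 0% of the 169 control cells reached 10 UMIs. Mutant upper follicle-like cells were thus uneven, with 54.6% of them at 0. In basal-like cells the top 5% of cells held 28.3% of the Krt16 UMIs in the mutant library and 61.8% in the control library.

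**Figure D2:**
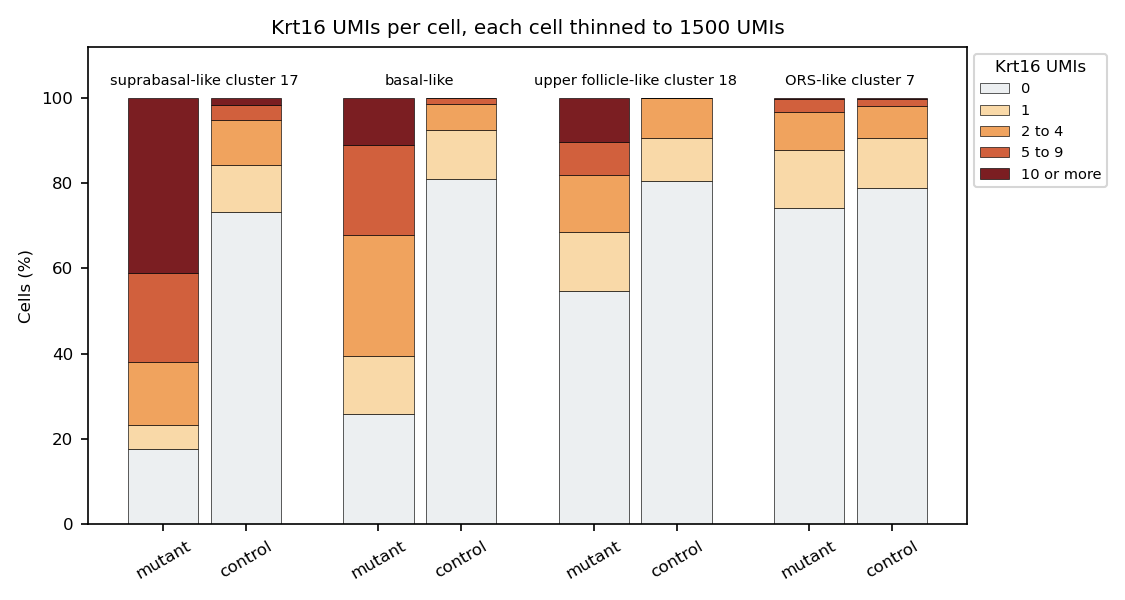
Share of cells (percent) by number of Krt16 UMIs after thinning every cell to 1500 UMIs, mutant left of control in each of 4 classes. The darkest band, 10 or more UMIs, held 41.0% of mutant and 1.68% of control suprabasal-like cells, and the outer root sheath-like bars are nearly alike.

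Free RNA sets a floor to these shares. T or NK cells, which do not make keratin filaments, held Krt16 in 7.68% of thinned mutant cells and 2.08% of thinned control cells, at 0.144 UMIs per mutant cell and 0.0334 UMIs per control cell. Melanocytes held it in 3.19% of mutant and 0.338% of control cells. Median depth was 1947 UMIs in mutant and 2264 UMIs in control T or NK cells, below that of the keratinocyte classes. The Krt16 share in control medulla-like cells, 1.99%, was near that of control T or NK cells. Control medulla-like cells were deeper, at a median of 8120 UMIs, so free RNA and low expression could not be told apart there. In mutant medulla-like cells the Krt16 share was 17.5%. In the hair matrix-like classes it was 10.7% and 13.6% of mutant cells against 4.70% and 4.19% of control cells, in clusters 8 and 10. Subtracting the free RNA per cell left the log2 ratio of the basal-like class at 2.98.

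Krt17 was detected in nearly every cell of the outer root sheath-like and upper follicle-like classes, and it was close between the libraries in the outer root sheath-like ones. In outer root sheath-like cluster 7 it stood at 9087 CPM in the mutant and 9182 CPM in the control library (log2 ratio -0.02, interval -0.03 to 0.00), and in cluster 0 at 6197 CPM in the mutant and 5988 CPM in the control library (0.05). Upper follicle-like cells were between these in the mutant library, at 6619 CPM, and had 8124 CPM in the control library (-0.30). Cluster 11, led by Tagln and Acta2, was lower in the mutant library at 3692 CPM against 5587 CPM in the control library (-0.60, interval -0.65 to -0.55), short of the rule, and at 0.074 with the strict cell filter. After thinning, 95.1% to 98.6% of mutant cells and 95.3% to 98.3% of control cells of the upper follicle-like and both outer root sheath-like classes held Krt17.

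In 6 of the other 7 classes, all but inner root sheath-like cells, Krt17 was higher in the mutant library. Basal-like cells had 4698 CPM in the mutant and 1248 CPM in the control library, a log2 ratio of 1.91 (1.88 to 1.94). Within cluster 6 the ratio was 0.90, with 2316 CPM in mutant and 1245 CPM in control cells. After thinning, 88.5% of mutant and 45.8% of control basal-like cells held Krt17, above the 24.9% of mutant and 30.4% of control T or NK cells. Hair matrix-like cluster 10 had 1673 CPM in the mutant and 447 CPM in the control library (1.91), but the log2 ratio was 0.45 with doublet calls kept and 0.00 with the automatic doublet threshold. Suprabasal-like cells had 1724 CPM in the mutant and 554 CPM in the control library (1.64), and this direction turned under 5 of the 16 other settings, to as low as -1.63, a large and lower ratio. The 2 calls outside the basal-like class are therefore unsure. Inner root sheath-like cells held Krt17 in 23.1% of mutant and 27.0% of control cells, below the shares of T or NK cells. Their levels were 770 CPM in the mutant and 843 CPM in the control library. T or NK cells were shallower before thinning, so these shares do not show whether the inner root sheath Krt17 was free RNA. Over all keratinocytes Krt17 came to 3213 CPM in the mutant and 2926 CPM in the control library (0.14), so the class differences were not seen in the sum.

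**Figure D3:**
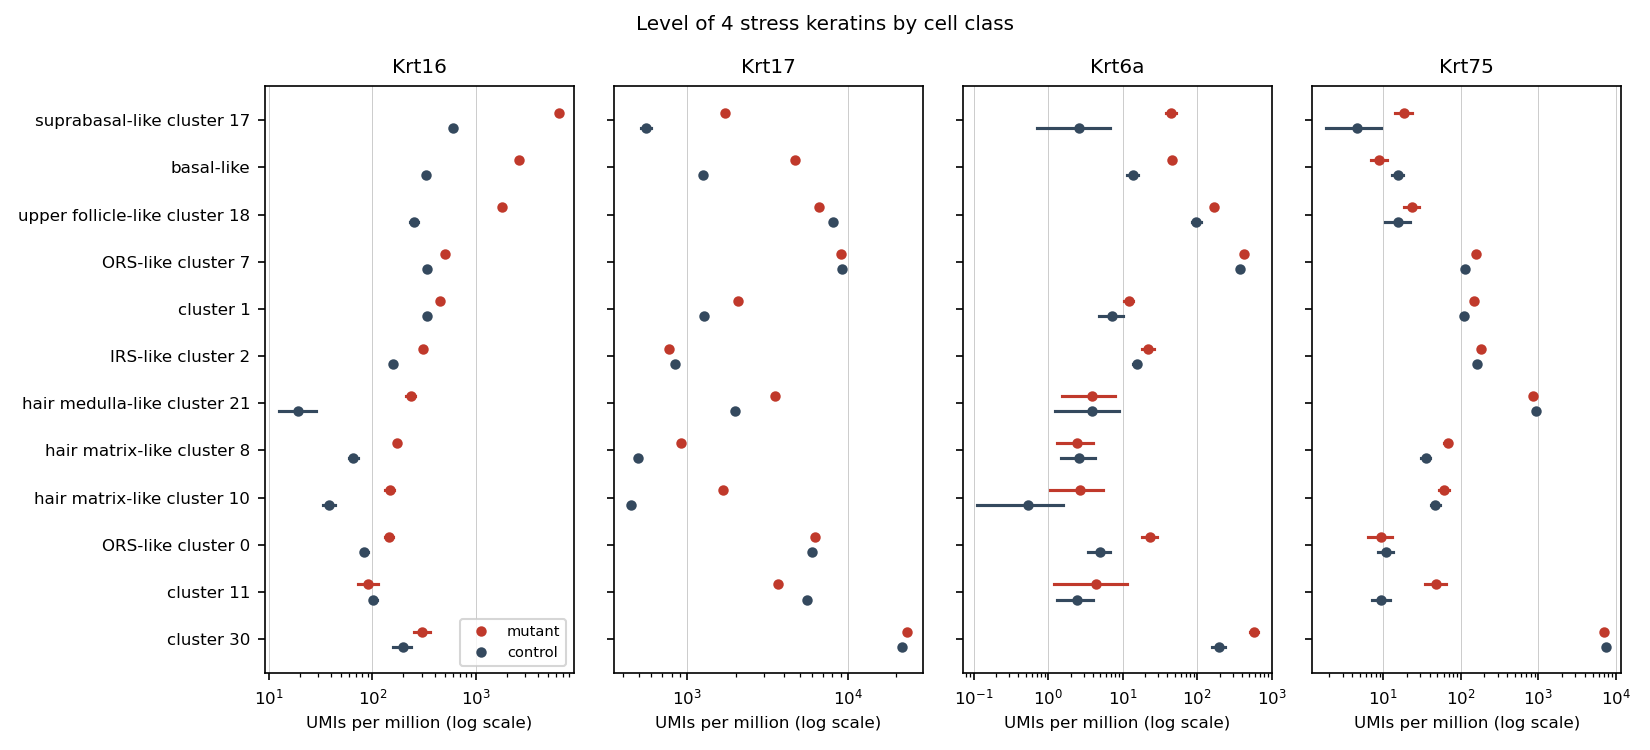
Level of Krt16, Krt17, Krt6a and Krt75 (CPM, log scale, a separate scale for each gene) in 11 keratinocyte classes and in cluster 30, with the mutant point above the control point and exact 95% counting intervals. The Krt16 intervals of the libraries lie apart in every row but that of cluster 11. Krt17 and Krt75 lie close together in cluster 30, and so does Krt17 in outer root sheath-like cluster 7.

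Krt6a, the type II chain that pairs with Krt16 and Krt17, stayed low in the interfollicular epidermis and was highest in the sheath. Among named classes its top level was in outer root sheath-like cluster 7, at 428 CPM in the mutant and 371 CPM in the control library (log2 ratio 0.21, interval 0.12 to 0.29). Upper follicle-like cells followed with 171 CPM in the mutant and 97.4 CPM in the control library (0.81). Basal-like cells had 46.4 CPM in the mutant and 13.6 CPM in the control library (1.77, interval 1.49 to 2.06), and suprabasal-like cells 45.0 CPM in the mutant library and 2.62 CPM, or 4 UMIs, in the control library. Both are under the 100 CPM limit and were not called. Krt6a in basal-like cells was thus higher in the mutant library by a ratio near that of Krt17. After thinning, 5.48% of mutant and 1.79% of control basal-like cells held a Krt6a UMI, above the 0.197% of mutant and 0.471% of control T or NK cells. At so low a level few thinned cells hold a UMI in any case, so these shares do not show whether Krt6a was concentrated in few basal-like cells. In suprabasal-like cells the top 5% of mutant cells held 93.8% of the Krt6a UMIs. Over all keratinocytes Krt6a was at 56.3 CPM in the mutant and 58.7 CPM in the control library (-0.06, interval -0.13 to 0.00).

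Krt6b, the near copy of Krt6a, was almost absent. All keratinocyte clusters together gave 25 UMIs in the mutant and 8 UMIs in the control library. Of the mutant UMIs, 17 came from suprabasal-like cells and 5 from upper follicle-like cells, in each class from a single cell, since the share of cells with a UMI was 0.231% of 432 and 0.268% of 373 cells. The control library had 0 UMIs in both of these classes, which allows up to 1.97 CPM in suprabasal-like and 1.45 CPM in upper follicle-like cells. A difference in Krt6b could not be read at this depth.

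Krt75, the companion layer and medulla keratin, was highest, among named classes, in medulla-like cells, where it was close between the libraries. Medulla-like cells had 853 CPM in the mutant and 927 CPM in the control library (log2 ratio -0.12, interval -0.23 to -0.01), and 61.6% of mutant and 66.2% of control cells held it after thinning. Inner root sheath-like cells had 184 CPM in the mutant and 163 CPM in the control library (0.17), and outer root sheath-like cluster 7 had 158 CPM in the mutant and 113 CPM in the control library (0.48). These ratios depended on the settings. Cluster 7 ran between 0.12 and 3.22, with a call of higher under 2 of 16 other settings, and inner root sheath-like cells between -0.26 and 1.24, with a call of higher under the strict cell filter. In outer root sheath-like cluster 7 the top 5% of cells held 95.5% of the Krt75 UMIs in the mutant and 95.7% in the control library. Basal-like cells had 8.89 CPM in the mutant and 15.4 CPM in the control library (-0.79), under the 100 CPM limit. Its thinned share there, 0.843% of mutant and 1.60% of control cells, was no higher than in T or NK cells, at 1.58% of mutant and 1.89% of control cells, and could not be told from free RNA.

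A small cluster held far more Krt75 and Krt17 than any class above. Cluster 30, 45 mutant and 47 control cells, had Krt75 at 7096 CPM in the mutant and 7428 CPM in the control library. Its Krt17 was at 23407 CPM in the mutant and 21791 CPM in the control library. Krt75 was found in 100% of thinned mutant cells and 97.8% of thinned control cells. Krt6a was at 577 CPM in the mutant and 194 CPM in the control library, in 15.9% and 6.67% of thinned cells of those libraries. The cluster expressed the basal keratin Krt5 at 1546 CPM in mutant and 1257 CPM in control cells. Its best marker set was that of Merkel cells, the touch cells of the skin, but the Merkel markers Krt20 and Atoh1 were at 0 in both libraries. It stays unnamed, was singled out after its values were seen, and is not part of the sums.

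As shares of all keratin UMIs in a class, which set the members against the other keratins, the 5 members together made up 25.3% in mutant and 6.82% in control basal-like cells. In suprabasal-like cells they made up 29.1% in the mutant and 4.34% in the control library. Krt16 alone made up 22.7% of keratin UMIs in mutant and 2.25% in control suprabasal-like cells. Krt10, the suprabasal differentiation keratin, made up 28.3% in the mutant and 39.0% in the control library there, and Krt1, its partner, 5.44% and 13.8% in the same order. Such shares add up to a whole, so a higher Krt16 share leaves less for the others. In CPM, Krt10 stood at 7934 in mutant and 10427 in control suprabasal-like cells (log2 ratio -0.39, not large). Krt1 stood at 1525 and 3686 CPM (-1.27, large) in the same order. In basal-like cells the basal keratin Krt15 made up 9.50% in the mutant and 20.4% in the control library, and Krt14 48.4% in the mutant and 43.6% in the control library. In outer root sheath-like cluster 7 the members' share was 49.2% in the mutant and 45.8% in the control library, and in medulla-like cells 74.6% and 49.7%. Cluster 30 was almost wholly made of them, at 90.6% in the mutant and 91.2% in the control library. A UMI is counted once per molecule at its 3′ end, so these shares are not scaled by transcript length.

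**Figure D4:**
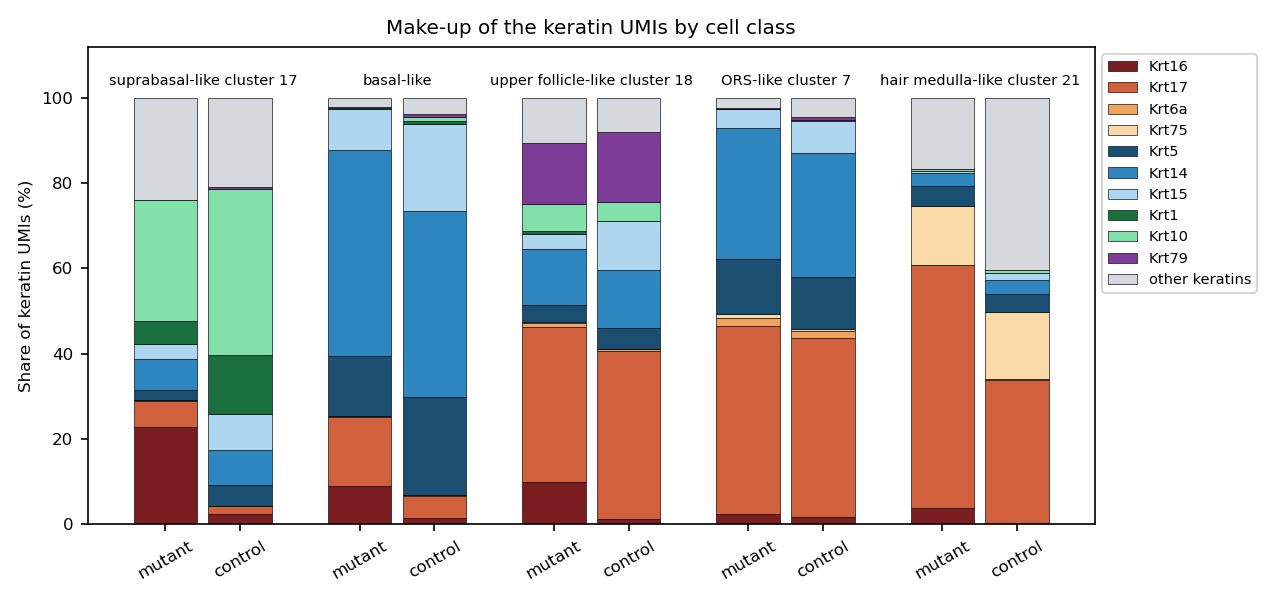
Share (percent) of keratin UMIs held by 10 keratins and by all others, in 5 classes, mutant left of control. The warm colours at the foot of each bar are the stress keratins, which reach 25.3% of mutant and 6.82% of control basal-like keratin UMIs.

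Krt16 and Krt17 mostly occurred in the same interfollicular cells of the mutant library. After thinning, 67.9% of mutant (65.4% to 70.3%) and 10.3% of control (8.503% to 12.2%) basal-like cells held both. The products of the separate shares, which would hold if the genes were independent, were 65.6% in the mutant and 8.66% in the control library. Both products lay within the intervals of the observed shares. Of mutant basal-like cells with Krt16, 91.6% also held Krt17, and of control cells 54.2%. In suprabasal-like cells 49.4% of mutant and 9.50% of control cells held both, with products of 45.9% and 7.94%. In upper follicle-like cells the share with both was 42.7% in the mutant and 18.9% in the control library, near the products of 43.2% and 18.6%. Across the 368 thinned mutant upper follicle-like cells the logged counts of Krt16 and Krt17 ran in opposite directions (Pearson r -0.20), while r was 0.20 over mutant basal-like cells and 0.06 over control upper follicle-like cells. These are descriptions over cells of 1 library each.

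**Figure D5:**
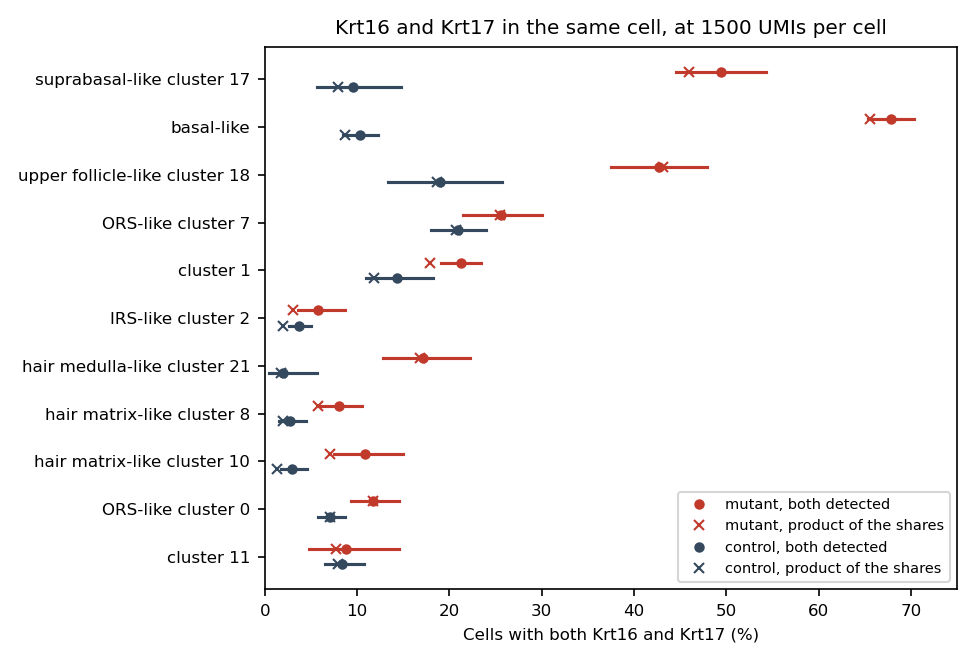
Share of cells (percent, at 1500 UMIs per cell) with both Krt16 and Krt17 in 11 classes, mutant above control. Points with exact 95% intervals are the observed shares and crosses the products of the separate shares, at 65.6% beside an observed 67.9% in mutant basal-like cells and at 3.06% beside 5.79% in mutant inner root sheath-like cells.

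The shares of Krt6a cells that also held Krt17 or Krt16 varied with the class. In outer root sheath-like cluster 7, 97.9% of mutant and 97.1% of control cells with Krt6a also held Krt17, against 32.0% and 21.4% that also held Krt16. The share with both Krt6a and Krt17, 22.3% in the mutant and 18.6% in the control library, was close to the products of 22.4% and 18.7%. In mutant suprabasal-like cells the order was the other way, as 91.7% of the 12 Krt6a cells held Krt16 and 66.7% held Krt17. There 2.58% of cells held both Krt6a and Krt16 and 1.87% both Krt6a and Krt17. The products were 2.32% and 1.57%, within the intervals, so no preference of Krt6a cells for Krt16 can be read. In upper follicle-like cells 65.9% of mutant and 46.7% of control cells with Krt6a held Krt16. In cluster 30, 95.5% of mutant and 95.6% of control cells held both Krt17 and Krt75. The mean number of members per thinned cell was 1.69 in mutant and 0.682 in control basal-like cells, and 1.51 in mutant and 1.41 in control cells of outer root sheath-like cluster 7. A cell without any member made up 5.20% of mutant and 44.6% of control basal-like cells. Cells with 3 or more members made up 4.01% of mutant and 0.847% of control basal-like cells, and 14.1% of mutant and 1.99% of control medulla-like cells.

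Other genes of the wound edge differed with the same sign in basal-like cells. The list was chosen with earlier results of these cells known and is not independent evidence. Of its 26 genes 11 were tested, of which 8 were large and higher in the mutant library and 1 lower, with a median log2 ratio of 1.54, against 0.01 over all genes tested. The 4 furthest were Ccl20, a chemokine, at 1241 CPM in mutant and 32.9 CPM in control cells (5.24), Tslp, an epithelial alarm cytokine, at 3420 and 501 CPM (2.77), Epgn, an EGF receptor ligand, at 1816 and 290.4 CPM (2.64), and Adam8, a membrane protease, at 308 and 54.5 CPM (2.50), each mutant first. All 4 are also among the 10 leading genes of cluster 4, so they are described here and not counted as separate from that cluster. Areg, another EGF receptor ligand, was lower at 51.4 CPM in mutant and 153.5 CPM in control cells (-1.58). In suprabasal-like cells 5 of 8 tested genes were higher and 1 lower. Sprr1b, a cornified envelope protein of stressed epidermis, was among those higher there, at 772 CPM in mutant and 340 CPM in control cells (1.18).

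Regulators named for the transcription of these keratins, most but not all of them transcription factors, mostly went the other way. Of 19 tested in basal-like cells, 9 were large and lower in the mutant library and 1 higher, with a median log2 ratio of -0.83. Fos stood at 199 CPM in mutant and 1579 CPM in control cells (-2.99), Egr1 at 167 CPM in mutant and 851 CPM in control cells (-2.35), and Atf3 at 695 CPM in mutant and 2502 CPM in control cells (-1.85). Rela, a subunit of NF-kappaB, was higher at 232 CPM in mutant and 103.5 CPM in control cells (1.16). Fosl1, the AP-1 member of migrating keratinocytes, was at 453 CPM in mutant and 254 CPM in control cells (0.83), short of the rule. Of 13 heat shock and dissociation genes tested, which cell isolation is known to induce, 7 were lower in mutant basal-like cells and none higher (median log2 ratio -1.195), and 8 of 13 were lower in suprabasal-like cells. Fos, Jun and Egr1 are in both lists, so 3 of the 7 are also among the 9 lower transcription factors. In outer root sheath-like clusters 0 and 7 the heat shock and dissociation genes gave 3 higher and 0 lower of 14. The counts were also 3 and 0 in inner root sheath-like cells, both hair matrix-like classes and cluster 11, with 13 or 14 genes tested. Medulla-like cells gave 2 higher and 0 lower, cluster 1 gave 1 and 0, and upper follicle-like cells 1 and 4. The part of cell isolation in the keratin results was not tested.

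Among the remaining lists in basal-like cells, differentiation keratins gave 2 lower and 0 higher of 3 tested, with Krt10 at 64.3 CPM in mutant and 251 CPM in control cells (-1.96) and Krt1 at 63.4 and 166 CPM (-1.39) in the same order. None of the 3 basal keratins was called. Of 9 proteins that anchor keratins to desmosomes and hemidesmosomes, Jup was higher (1.09) and Dsg1a lower (-1.17). Of 10 genes driven by the oxidative stress factor Nfe2l2 only 2 were tested, and Txnrd1 was higher at 195 CPM in mutant and 63.8 CPM in control cells (1.61). Of the upper follicle and simple keratins only Krt79 was tested, at 41.4 CPM in mutant and 143 CPM in control cells (-1.79).

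Patterns were also compared across the 11 classes of any cell type that held 200 or more cells in each library. These were the 7 compared keratinocyte classes and the T or NK cell-like, melanocyte-like, fibroblast-like and dermal papilla-like cells. Suprabasal-like and upper follicle-like cells were not among them. Both libraries together gave 22 points over 3885 genes, with points of a library sharing its depth and free RNA. The 5 patterns most like Krt16 on the log2(CPM + 1) scale included those of Cdcp1 (Pearson r 0.94), Cldn1 (0.94), F2rl1 (0.93) and Cxcl16 (0.93). Those most like Krt17 were Fxyd3 (0.94), Cxadr (0.94), Prrg4 (0.93), Krt5 (0.92) and Trp63 (0.91). For Krt6a they were Sbsn (0.94), Sox9 (0.87), Prrg4 (0.87), Sprr1a (0.85) and Afdn (0.85), and for Krt75 Fzd5 (0.91), Zfp750 (0.87), Rhov (0.86), Lrat (0.85) and Grhl1 (0.85). Krt6b had too few UMIs for its nearest pattern, Cst6 (0.66), to be read.

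Within basal-like cells the genes that varied most like Krt16 were not the same in the libraries. Over 1423 thinned mutant cells and 1318 genes they were Actb (r 0.37), Serpinb2 (0.37), Actg1 (0.33), Tpm1 (0.27) and S100a11 (0.26), 3 of which encode actins or an actin-binding protein. Over 1062 thinned control cells and 1379 genes they were Gadd45b (0.34), Tslp (0.32), Cldn4 (0.32), Ovol1 (0.30) and Ifi202b (0.29). Krt17 ranked 16 in the mutant (0.20) and 135 in the control library (0.11). These correlations are weak and come from sparse counts of 1 library each.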

How the data were processed

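Single cells were captured with 10x 3′ v3 chemistry, per the labels' protocols. The authors deposited 1 matrix of UMI counts per group, and per the file headers the counting program was Cell Ranger 3.0.2. The submitters' processing notes also name Seurat 3.0.0 and 3.1.0 and the build GRCm38 (mm10). The deposited counts, with totals of 97817173 mutant and 140880809 control UMIs, were used as they stand.

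Barcodes with under 500 genes (1396 mutant, 2430 control) or over 15% mitochondrial UMIs (560, 387) were removed, as were 660 mutant and 1269 control doublet calls (scanpy 1.11.5, Scrublet score over 0.25). Counts were scaled to 10000 per cell and logged. Clustering used 2000 variable genes without the members, 30 components, 15 neighbours and leiden at resolution 1. A cluster was named where a marker set scored 1 or more and led the next by 0.3, 3 or more of its markers were detected, and its leading genes did not go against it. Doublets and free RNA were not corrected further. Sums per class gave CPM with exact Poisson intervals, ratios with exact conditional intervals, and shares with Clopper-Pearson intervals. Calls were run on simulated counts with Poisson error only, the error that the intervals assume. That simulation holds no variation between animals or libraries and cannot show how the calls stand up to it.

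The members, gene lists and markers were chosen with earlier results of these data known. Named genes are the members, up to 4 large ratios per list and class, and the 5 nearest patterns, while Sprr1b, Rela and Fosl1 were named after their values were seen. Some genes these rules name are not reported here. A count of 0 allows up to 3 counts. Alternatives changed the cell filter, doublet removal, clustering, scaling, depth, class weights and free RNA, and their effect is given at the end.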

Additional observations from a re-analysis of the deposited data

Results flagged for a closer look

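Krt17 went in opposite directions in different classes. It was lower in the mutant library in cluster 11 (log2 ratio -0.60) and higher in basal-like cells (1.91). The cluster 11 ratio rests on 148 mutant cells, was short of the rule for a large ratio, and was 0.074 with the strict cell filter. The difference between the classes was not tested, since each group is 1 library.

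Krt16 was also higher in mutant barcodes that were left out of all comparisons. Barcodes with under 500 genes had 83.0 CPM in the mutant and 20.4 CPM in the control matrix (log2 ratio 2.03). Barcodes over 15% mitochondrial UMIs had 277 CPM in the mutant and 65.0 CPM in the control matrix (2.09). Doublet calls had 795 CPM in the mutant and 123 CPM in the control matrix (2.69).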

How the results depend on the processing

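In the 7 compared classes no large member ratio was lower in the mutant library under any of the settings tried, while the count of higher ones, 5 as reported, was 9 with each library clustered on its own, 10 with clustering without genes of large ratio, 3 with a minimum of 200 CPM and 9 with classes of 100 or more cells. Over the 9 called ratios of the 11 classes, the other settings gave 141 values, of which 136 had the same sign and 129 the same call, and 6 of the 9 ratios kept their call throughout. Krt16 in basal-like cells ran between 1.90 and 3.63 on the log2 scale, and Krt17 between 1.33 and 2.24. Krt17 in suprabasal-like cells turned to -0.38 with the strict filter, -0.27 at resolution 0.5, -1.63 with each library clustered on its own, a large and lower ratio, -0.42 with clustering without genes of large ratio and -0.27 with the automatic doublet threshold. Krt16 in hair matrix-like cluster 10 lost its call at 1.37 with the strict filter, 1.57 with members among the clustering genes, 1.67 with the T or NK cell level subtracted and 1.01 with the automatic doublet threshold. The causes were not tested.

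The log2 ratios summed over all keratinocytes moved past their counting intervals as follows. Thinned cells gave 0.47 for Krt6a, -0.89 for Krt6b, 3.18 for Krt16, 0.18 for Krt17 and 0.57 for Krt75. The mean of per cell CPM gave 0.51, 0.33, 3.16, 0.19 and 0.71 for the same genes in the same order, and the mean of class ratios gave 1.09, -0.79, 1.30, 0.76 and 0.20. With doublet calls kept, Krt6a was at 0.092, Krt16 at 2.62, Krt17 at 0.18 and Krt75 at 0.40. With the automatic doublet threshold, Krt6a was at 0.11, Krt17 at 0.19 and Krt75 at 0.40. With each library clustered on its own, Krt6a was at 0.15, Krt17 at 0.20 and Krt75 at 0.60, and without genes of large ratio at 0.050, 0.17 and 0.46. With members among the clustering genes they were at 0.083, 0.18 and 0.46. The strict filter gave 0.023 for Krt6a and 0.15 for Krt17, and resolution 2 gave 0.010 for Krt6a. TMM factors gave 2.64 for Krt16, 0.18 for Krt17 and 0.31 for Krt75, median of ratios factors gave 2.65, 0.20 and 0.32, and the total without mitochondrial, ribosomal and member genes gave 2.62 for Krt16 and 0.17 for Krt17. Leaving out cells with sebaceous markers gave 0.58 for Krt6b, 2.66 for Krt16, 0.073 for Krt17 and 0.48 for Krt75. Krt75 was at -0.075 with the T or NK cell level subtracted and 0.19 with free RNA subtracted per cell. Krt6a, as reported at -0.06, thus has no settled direction over all keratinocytes, nor has Krt6b.

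Depth sets the shares of cells with a UMI. Krt16 was found in 68.7% of mutant and 12.8% of control basal-like cells at 1000 UMIs, in 83.9% and 26.03% at 3000 UMIs, and in 60.5% and 7.44% where 2 UMIs were asked for. Krt16 and Krt17 together were found in 80.8% of mutant and 19.3% of control basal-like cells at 3000 UMIs. Scaling by TMM added 0.25 to every ratio in basal-like cells and 0.44 in suprabasal-like cells. No paired analysis was possible because cells are not tied to samples and each group is 1 matrix. For the same reason the leaving out of samples was not run. Classes of 100 or more cells, the automatic doublet threshold, the cells with sebaceous markers and the free RNA per cell were chosen after seeing the data.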

Other observations

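Langerhans or dendritic-like cluster 26, 104 mutant and 81 control cells outside the keratinocyte classes, held more of these keratins than T or NK cells did. Its Krt17 was at 3558 CPM in the mutant and 1224 CPM in the control library, and its Krt16 at 1610 CPM in the mutant and 341 CPM in the control library. The top 5% of its mutant cells held 59.4% of the Krt16 UMIs.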
